A study of Mus musculus with 2 samples.

Results

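The genes described here are the secreted ligands of the TGF-beta superfamily and the secreted proteins that antagonise them: the bone morphogenetic proteins (BMPs), the growth and differentiation factors (GDFs), the activin and inhibin subunits, Nodal, the TGF-beta ligands and anti-Mullerian hormone as ligands, and noggin, chordin, Cerberus, follistatin, Gremlin and the Lefty proteins as antagonists. The 36 genes were chosen by name, and 35 of them were measured with at least 3 probes, out of 16839 genes in all; Gdf11 was not analysed here. Of these, 28 were ligands and 7 were antagonists, with 18 genes on 1 array and 17 on the other.

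DNA from mouse embryonic stem (ES) cells was immunoprecipitated with a monoclonal antibody against Ring1B, labelled with Cy5, and hybridised together with Cy3-labelled input DNA from whole-cell extract. The 2 samples are the 2 slides of an Agilent promoter tiling set, which shared 0 probes, so each promoter was measured on 1 array. There was no replicate, no swapped dye and no control antibody. Source names in the labels start with the word Muscle, but the titles and protocols describe ES cells, which is how the samples are treated here. The ES cell line, its genotype and any treatment are not stated. No RNA was measured, so the labelled cell type could not be checked against marker genes.

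Ring1B is the catalytic subunit of Polycomb repressive complex 1, an E3 ligase that ubiquitylates histone H2A at the promoters of developmental regulators. TGF-beta superfamily ligands are secreted as dimers and bind pairs of serine/threonine kinase receptors, which phosphorylate Smad proteins that enter the nucleus and regulate target genes. Antagonists bind the ligands or their co-receptors outside the cell and keep them from signalling. In the early embryo Nodal, BMPs and their antagonists pattern the germ layers, and ES cells make several of them and respond to them.

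The value per gene is the mean over its probes of the log2 ratio of Ring1B immunoprecipitated (IP) over input signal, centred on the median probe of its array, so that 1 is a 2-fold ratio. The spread given is the SD over the probes of 1 gene, which differ in position and sequence and are not replicates. With 1 array per gene no difference was tested, and no p-value is given. The arrays held 237054 and 237168 usable probes, with an SD over all probes of 1.33 and 1.44. Signal was well above background at 77.2% and 80.6% of probes in the IP channel and at 74.1% and 76.3% in the input channel.

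The promoter sequences below show where the probes with the values discussed next lay around the transcription start of 6 ligand and 2 antagonist genes. Each runs from 250 bases before to 50 bases after the start in RefSeq (GRCm38.p6), on the strand of the gene and 5′ to 3′, and capitals mark the bases covered by array probes.
Bmp6: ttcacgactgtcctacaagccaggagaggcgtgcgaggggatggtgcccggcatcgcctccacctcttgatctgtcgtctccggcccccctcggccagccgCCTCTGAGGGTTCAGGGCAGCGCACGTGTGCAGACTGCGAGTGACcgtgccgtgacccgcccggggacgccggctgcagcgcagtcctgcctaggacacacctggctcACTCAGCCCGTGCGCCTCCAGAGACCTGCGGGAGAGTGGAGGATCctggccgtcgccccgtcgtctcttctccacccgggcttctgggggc
Tgfb1: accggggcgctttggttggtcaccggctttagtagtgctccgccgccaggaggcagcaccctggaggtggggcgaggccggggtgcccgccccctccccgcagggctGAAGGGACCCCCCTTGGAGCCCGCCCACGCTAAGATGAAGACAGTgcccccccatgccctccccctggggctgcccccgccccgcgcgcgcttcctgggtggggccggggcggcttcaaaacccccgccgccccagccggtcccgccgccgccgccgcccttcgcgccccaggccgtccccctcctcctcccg
Inhbb: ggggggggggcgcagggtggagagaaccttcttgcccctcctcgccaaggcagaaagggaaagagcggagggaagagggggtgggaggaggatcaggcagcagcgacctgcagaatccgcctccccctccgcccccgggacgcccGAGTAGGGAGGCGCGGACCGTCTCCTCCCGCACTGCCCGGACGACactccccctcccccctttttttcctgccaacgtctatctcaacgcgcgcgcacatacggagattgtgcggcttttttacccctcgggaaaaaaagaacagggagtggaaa
Tgfb2: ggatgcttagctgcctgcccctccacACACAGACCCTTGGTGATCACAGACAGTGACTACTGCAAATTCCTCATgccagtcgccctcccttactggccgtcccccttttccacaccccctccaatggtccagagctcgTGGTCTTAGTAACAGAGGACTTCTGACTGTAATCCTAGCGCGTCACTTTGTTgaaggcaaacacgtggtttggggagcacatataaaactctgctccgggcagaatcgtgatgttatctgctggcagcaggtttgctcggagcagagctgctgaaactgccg
Bmp8b: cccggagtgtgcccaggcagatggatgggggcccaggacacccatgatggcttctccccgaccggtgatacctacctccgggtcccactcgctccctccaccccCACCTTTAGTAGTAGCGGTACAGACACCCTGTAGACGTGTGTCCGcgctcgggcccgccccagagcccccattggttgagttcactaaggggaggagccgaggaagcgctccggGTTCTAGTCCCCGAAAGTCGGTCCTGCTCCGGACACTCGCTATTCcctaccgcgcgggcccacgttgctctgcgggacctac
Inhbe: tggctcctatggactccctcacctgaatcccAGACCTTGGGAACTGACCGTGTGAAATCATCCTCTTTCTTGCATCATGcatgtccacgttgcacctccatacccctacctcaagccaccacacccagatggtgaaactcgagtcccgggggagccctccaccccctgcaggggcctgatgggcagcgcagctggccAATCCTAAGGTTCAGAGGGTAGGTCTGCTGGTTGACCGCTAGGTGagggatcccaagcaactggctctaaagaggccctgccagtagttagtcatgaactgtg
Grem1: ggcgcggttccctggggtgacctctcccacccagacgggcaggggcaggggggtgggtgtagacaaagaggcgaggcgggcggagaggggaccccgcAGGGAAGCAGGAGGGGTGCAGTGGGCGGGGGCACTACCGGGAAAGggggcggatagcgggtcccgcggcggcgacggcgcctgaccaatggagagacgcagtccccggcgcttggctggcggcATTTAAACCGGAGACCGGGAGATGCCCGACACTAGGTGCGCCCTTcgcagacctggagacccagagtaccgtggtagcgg
Cer1: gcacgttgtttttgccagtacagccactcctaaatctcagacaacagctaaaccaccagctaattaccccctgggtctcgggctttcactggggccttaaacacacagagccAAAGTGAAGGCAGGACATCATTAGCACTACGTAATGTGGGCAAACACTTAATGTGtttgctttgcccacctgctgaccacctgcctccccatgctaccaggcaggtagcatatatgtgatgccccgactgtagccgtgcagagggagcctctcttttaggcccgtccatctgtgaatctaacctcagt

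The windows lie at chr13:38345466-38345765 on the + strand for Bmp6, chr7:25686752-25687051 on the + strand for Tgfb1, chr1:119422199-119422498 on the - strand for Inhbb, and chr1:186705940-186706239 on the - strand for Tgfb2. The remaining windows lie at chr4:123104911-123105210 on the + strand for Bmp8b, chr10:127351799-127352098 on the - strand for Inhbe, chr2:113758599-113758898 on the - strand for Grem1, and chr4:82885102-82885401 on the - strand for Cer1. The windows of Grem1, Bmp6, Tgfb1, Inhbb and Bmp8b held 28, 27, 30, 23 and 23 CG pairs, that of Tgfb2 held 10, and those of Cer1 and Inhbe held 6 each, against a median of 7 over all 32851 promoter windows. Among windows not printed, Gdf10 (42 CG pairs), Chrd (34) and Gdf7 (26) were also rich in CpG, with gene means of 0.43, 0.15 and -0.08. RefSeq windows were matched for 22 of the 35 genes. Distances from the start, unless a RefSeq window is named, count from the array's start. For the 18 genes on the first array this is the start in its annotation. For the 17 genes on the second, Bmp6, Bmp4, Fst, Nog, Inhba and Nodal among them, no distance was annotated. There the boundary between promoter probes and probes within the gene was taken as the start. Through probes that lie in a RefSeq window, both starts could be compared for 18 genes, with a median offset of 11 bp; they lay more than 500 bp apart at Bmp4 (3584 bp), Inhba (2656.5 bp) and Inha (533 bp).

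Of the 35 ligand and antagonist genes, 3 had a mean log2 ratio at or above 1: the antagonist gene Grem1 and the ligand genes Bmp6 and Tgfb1. Among all genes 2.00% reached that value. None of the 35 was at or below -1, where 1.86% of all genes lay. At or above 0.5 stood 9 of the 35, with Bmp4, Fst, Inhbb, Bmp2, Gdf6 and Tgfb2 joining those 3, against 7.61% of all genes. At or below -0.5 stood 4 of the 35, Bmp5, Gdf1, Cer1 and Inhbe, against 15.4% of all genes. The median over the 35 genes was 0.08, and that over all genes was -0.10, with 22 of the 35 genes and 39.2% of all genes above 0. Of the genes past either threshold of 1, 51.8% were on the high side, a split that moved to 79.9% without centring, 87.8% with normexp background correction, 89.3% in the deposited series table and 63.2% after correction for probe GC. It fell to 49.1% without probes dim in input, and to 46.6% without probes shared with a divergent neighbour. Without probes at the software's floor value in both channels it was 46.8%. In the other alternatives at this threshold it lay between 55.3% and 65.0%. The plot of means by gene shows that the spread over probes was wide for every gene, with an SD of 0.96 to 1.89.

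**Figure D1:**
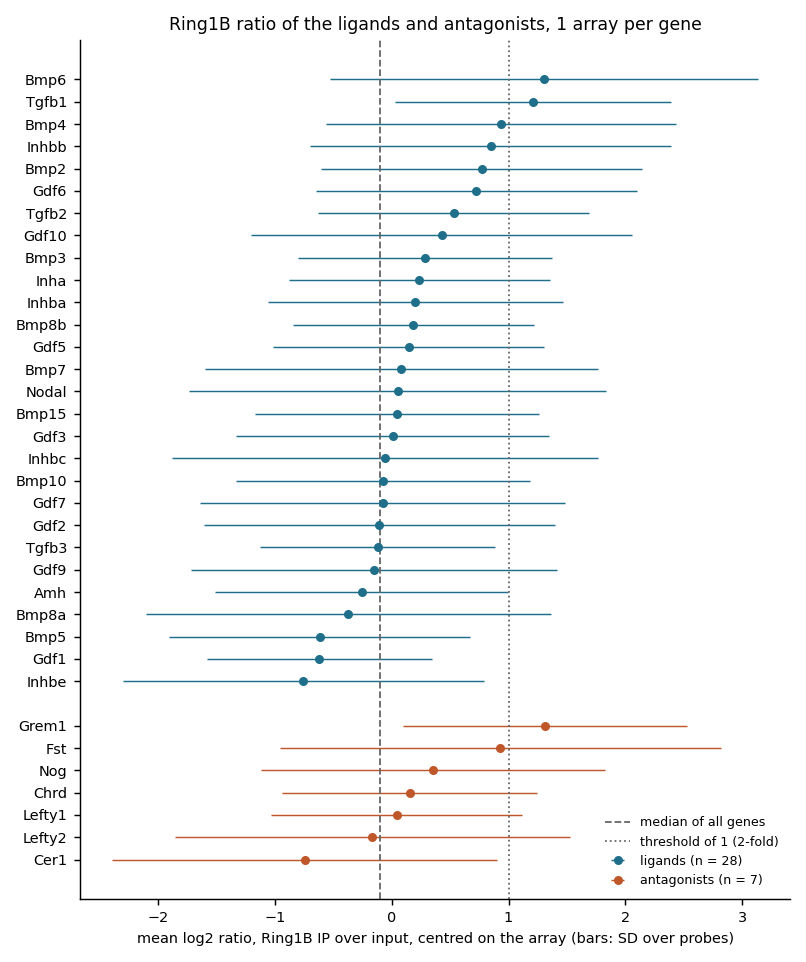
Mean log2 ratio of Ring1B IP over input for each gene (x axis), with bars for the SD over its probes. The 28 ligands stand above the 7 antagonists, each ordered by mean. The dashed line is the median of all genes and the dotted line the threshold of 1. Grem1, Bmp6 and Tgfb1 lie past the dotted line, and the bars of most genes span both lines.

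Among the BMP ligands, which signal mainly through Smad1, Smad5 and Smad9, Bmp6 had the highest ratio. Its mean was 1.30 ± 1.83 (SD over 38 probes), with 25 probes that reached 1 and 4 at -1 or lower. The median IP signal over those probes was 940 intensity units, against a median input signal of 344. The 2 probes in its printed promoter window stood at 1.59 and 1.41. A continuous run of 25 probes, 4709 bp long, had a mean of 2.09, and it reached from 2434 bp before the start to 2218 bp past it (chr13:37762274-37766982 in the coordinates of the array, whose genome build is not stated in the sources used here). Upstream of the run single probes ranged from -3.66 to 2.90, with the lowest 3 next to each other, 4386.5 to 4123.5 bp before the start.

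Bmp4, a BMP ligand that is used to direct ES cells to mesoderm and that acts in dorsal-ventral patterning, had a mean of 0.94 ± 1.498 (51 probes). Its 2 longest runs lay upstream of the array's start: 8 probes over 1741 bp with a mean of 2.08, 4730 to 3040 bp before the start, and 9 probes over 1571 bp with a mean of 1.76, 2482 to 956.5 bp before it. Within 1000 bp of that start the mean was 0.44 ± 1.62 (11 probes). The start in RefSeq lies 3584 bp upstream of the array's, inside the first of these runs, and the 1 probe in its RefSeq promoter window stood at 0.33. Bmp2, the closest relative of Bmp4, had a mean of 0.77 ± 1.37 (37 probes) and a run of 11 probes over 1710 bp around its start with a mean of 1.69. Within 1000 bp of the Bmp2 start the mean was 1.55 ± 1.07 (12 probes).

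Bmp7, a ligand needed for kidney and eye development, averaged 0.08 ± 1.68 (38 probes), a value made of 2 opposite parts. The 15 probes within the gene averaged 1.40 ± 1.24, and the 23 promoter probes averaged -0.78 ± 1.35. A run of 8 probes over 1254 bp just inside the gene had a mean of 2.14, while a run of 6 probes upstream, over 876 bp, had a mean of -1.34. The remaining BMP genes showed no long run of high ratio. Bmp3, which encodes an unusual BMP that counters osteogenic BMPs, averaged 0.28 ± 1.08 (37 probes). Bmp8a and Bmp8b, the paired ligands that act in germ cell formation, averaged -0.37 ± 1.73 (25 probes) and 0.18 ± 1.03 (21 probes). Within 1000 bp of the start, Bmp8a averaged 1.01 ± 0.86 (10 probes) and Bmp8b 0.26 ± 1.28 (11 probes). The 2 probes in the Bmp8b promoter window, among those 11, stood at 2.69 and 1.52. Bmp15, an oocyte factor, averaged 0.05 ± 1.22 (25 probes), and Bmp10, a heart factor, averaged -0.07 ± 1.26 (42 probes). Bmp5, a skeletal BMP, had the lowest mean of the BMP genes at -0.62 ± 1.29 (37 probes). At 45.9% of its probes both channels were at the software's floor value for dim spots, and its median probe was -0.03. Its 13 probes within the gene averaged -1.46 ± 1.43.

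Gdf6, which acts in joint and eye development, led the GDF genes with a mean of 0.72 ± 1.38 (38 probes). Its 13 probes within the gene averaged 1.62 ± 0.87 and its 25 promoter probes 0.26 ± 1.37, and a run of 11 probes over 1873 bp inside the gene had a mean of 1.69. Gdf10 (also called Bmp3b), a relative of Bmp3, averaged 0.43 ± 1.63 (38 probes), and within 1000 bp of its start 1.18 ± 1.02 (11 probes). Gdf5, a joint morphogen, averaged 0.15 ± 1.16 (28 probes), and Gdf3, an embryonic ligand made by pluripotent cells, averaged 0.01 ± 1.34 (29 probes). A run of 3 probes inside Gdf3 had a mean of 2.22 over 453 bp, with no such run at its start.

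The remaining 4 GDF genes had means below 0. Gdf7, a roof plate factor that shares 35 probes with its divergent neighbour Hs1bp3, averaged -0.08 ± 1.56 (58 probes), with 0.83 ± 1.19 over its 14 probes within the gene, and 0.82 over the 23 probes it does not share. Gdf2 (BMP9), a circulating liver-derived ligand, averaged -0.11 ± 1.51 (28 probes). Gdf9, an oocyte factor that shares 11 probes with Uqcrq, averaged -0.15 ± 1.57 (20 probes). Gdf1, a partner of Nodal in left-right patterning, averaged -0.62 ± 0.96 (35 probes), with 11 probes at or below -1. It is encoded at the same locus as Cers1, whose 8 probes averaged -0.26.

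The activin and inhibin subunits dimerise into activins, which signal through Smad2 and Smad3, or into inhibins, which oppose them. Inhbb, the activin beta-B subunit, averaged 0.85 ± 1.54 (32 probes). Its IP signal had a median of 2001 intensity units over the probes, against an input median of 724. The single probe in its promoter window stood at 3.01, and a run of 11 probes over 1893 bp ending just past the start had a mean of 2.11. Inside the gene the values dipped and then reached 1.94 over 3 probes. Inha, the inhibin alpha subunit, averaged 0.23 ± 1.12 (25 probes, 8 of them shared with Obsl1), and Inhba, the activin beta-A subunit, averaged 0.20 ± 1.26 (40 probes). The 11 probes within 1000 bp of the array's start of Inhba averaged -0.79 ± 0.92. The start in RefSeq lies 2656.5 bp upstream of it, and the 2 probes in the RefSeq promoter window there stood at 1.84 and 1.15. Inhbc and Inhbe, the adjacent liver subunit genes, averaged -0.06 ± 1.82 (25 probes) and -0.76 ± 1.55 (29 probes). Inhbe had the lowest mean of the 35 genes, with 14 probes at or below -1, and its median IP signal was 768 against an input median of 1757. The 2 probes in the printed Inhbe promoter window stood at 0.55 and -1.33.

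Tgfb1, a TGF-beta ligand with a broad part in immune regulation, averaged 1.21 ± 1.18 over 19 probes; 11 of them reached 1, and 0 fell to -1 or lower. Its median IP signal was 3313 intensity units, against an input median of 1228. The tile held 2 promoter probes, so the value came almost wholly from 17 probes within the gene, which averaged 1.29 ± 1.22. The run of high ratio lay 741 to 2911 bp past the start, over 2221 bp with a mean of 1.46, while the single probe in the promoter window printed above stood at 0.06 and the 8 probes within 1000 bp of the start averaged 0.75 ± 0.64. Tgfb2, which acts in heart and skull development, averaged 0.53 ± 1.16 (44 probes). The 2 probes in the Tgfb2 promoter window stood at 3.37 and 3.80, the second being the highest of its 44 probes, and a run of 5 probes there had a mean of 1.77 over 715 bp. Tgfb3, a palate-closure ligand that shares 19 probes with Ift43, averaged -0.12 ± 1.00 (32 probes), and 0.20 over the 13 probes it does not share.

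Nodal, the ligand that specifies mesendoderm and left-right asymmetry, averaged 0.05 ± 1.78 (31 probes). Its 14 probes within the gene averaged -0.48 ± 1.82 and its 17 promoter probes 0.48 ± 1.68, the opposite order to Bmp7. Amh, the hormone that makes the Mullerian ducts regress, averaged -0.26 ± 1.25 (16 probes).

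Among the antagonists, Grem1, which encodes the BMP antagonist Gremlin, had the highest mean of all 35 genes. It averaged 1.31 ± 1.21 (30 probes), with 18 probes at or above 1 and 0 at or below -1, a rank above 99.0% of all genes. The median IP signal was 1723 intensity units over its probes, against an input median of 346. The probe across its start in the printed window stood at 2.99, and the one 109 to 153 bases before it stood at 0.21. A run of 15 probes over 2671 bp, beginning 495 bp before the start, had a mean of 1.95 (chr2:113606731-113609401 in the array's coordinates), and a shorter run of 6 probes upstream had a mean of 1.48.

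Fst encodes follistatin, which binds and neutralises activins. It averaged 0.93 ± 1.89 (38 probes) but 2.65 ± 1.04 over the 8 probes within the gene. A run of 21 probes over 4034 bp had a mean of 2.28 (chr13:111629381-111633414 in the array's coordinates), reaching from 2416 bp before the start to 1558 bp past it. Upstream of that, 6 probes over 814 bp had a mean of -1.75. So the mean over the whole tile fell short of 1 although the run had the highest mean among the 4 long ones.

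Nog encodes noggin, which binds BMPs and blocks their receptor contact. It averaged 0.35 ± 1.47 (35 probes), with 1.88 ± 1.58 over the 4 probes within its short single-exon gene and 0.97 over 11 probes downstream, against -0.29 ± 1.16 over its 20 promoter probes. A run of 11 probes over 1759 bp had a mean of 1.74. Chrd, which encodes the BMP-binding protein chordin, averaged 0.15 ± 1.09 over 30 promoter probes, with no probe annotated as within the gene. Lefty1 and Lefty2, which antagonise Nodal signalling and are made by ES cells, averaged 0.04 ± 1.08 (25 probes) and -0.17 ± 1.69 (28 probes). Cer1, which encodes a secreted antagonist of Nodal, BMP and Wnt, had the lowest mean of the antagonists, -0.75 ± 1.65 (44 probes). Its 15 probes within the gene averaged -1.60 ± 1.71, and the probe in its promoter window stood at -0.55.

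For 5 of the 13 genes with no matched RefSeq promoter, those with a high run of over 1000 bp, the highest probe within 500 bp of the highest running mean is shown, because that is where the high ratio of these genes lay. CG pairs are in capitals.
Fst probe: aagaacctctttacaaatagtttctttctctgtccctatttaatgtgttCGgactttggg
Bmp2 probe: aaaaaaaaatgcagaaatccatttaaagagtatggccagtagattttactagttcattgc
Gdf6 probe: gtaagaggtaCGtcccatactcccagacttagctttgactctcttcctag
Bmp7 probe: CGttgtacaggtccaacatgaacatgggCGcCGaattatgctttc
Nog probe: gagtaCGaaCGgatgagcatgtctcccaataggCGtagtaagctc

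They stood at 4.20 for Fst (chr13:111630013-111630072), 2.83 for Bmp2 (chr2:133294469-133294528), 2.70 for Gdf6 (chr4:9773022-9773071), 3.52 for Bmp7 (chr2:172684193-172684237) and 3.75 for Nog (chr11:89409574-89409618), in the array's coordinates. These 5, chosen for their high runs, lay 447 to 1528 bp past the array's start. The Nog probe is annotated as downstream of the gene, and those of Fst, Bmp2, Gdf6 and Bmp7 as within it. For the other 8 genes the same probe lay past the start in Bmp3, Gdf3, Tgfb3 and Amh and before it in Lefty1, Lefty2, Gdf5 and Gdf9. No probe of the 35 genes shared 25 bases with a probe of another locus on the arrays.

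**Figure D2:**
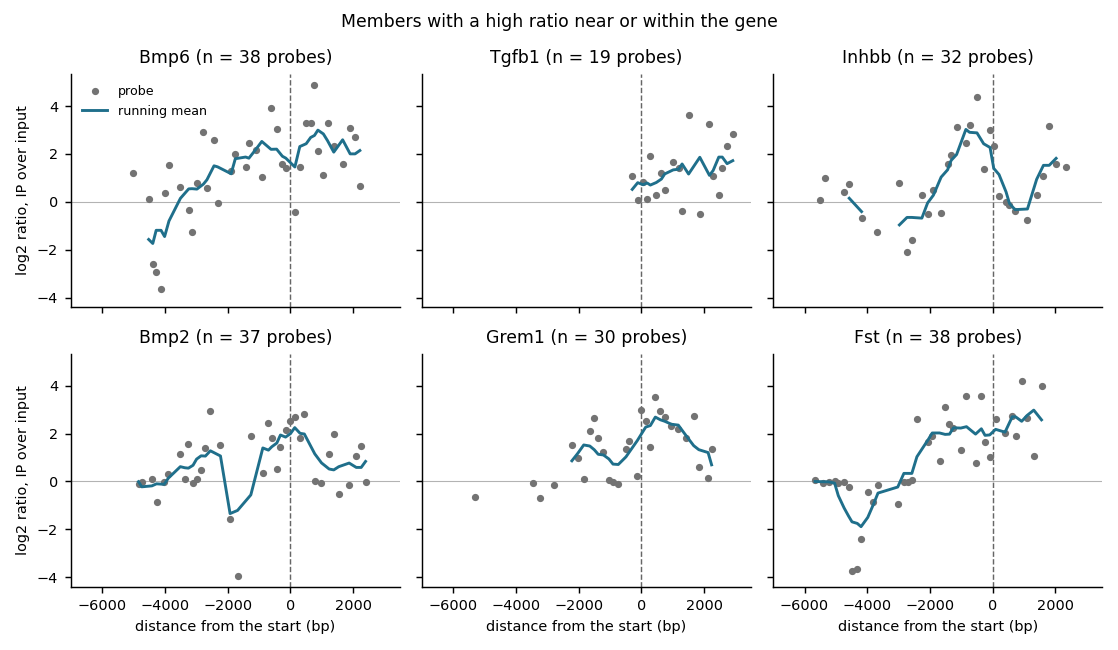
Log2 ratio of Ring1B IP over input (y axis) of each probe (points) against its distance from the transcription start in bp (x axis), for Bmp6, Tgfb1, Inhbb, Bmp2, Grem1 and Fst; lines are the running mean over probes within 500 bp on either side, and the dashed line is the start. The running mean reaches 2 within 1000 bp of the start of Bmp6, Fst, Inhbb, Bmp2 and Grem1, and stays below 2 at Tgfb1.

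The long runs were counted by a fixed rule: at least 3 neighbouring probes with a running mean at or above 1, gaps under 1000 bp and a length of at least 2000 bp. Such a run was found at 4 of the 35 genes, Bmp6, Fst, Grem1 and Tgfb1, against 3.05% of all genes, and no run of low ratio of that length was found at any of the 35, against 0.992% of all genes. Runs between 1000 and 2000 bp were found at Inhbb, Gdf6, Nog, Bmp4, Bmp2, Gdf10, Inhba and Bmp7. With the shorter minimum, 12 of the 35 genes had a high run, against 8.27% of all genes, and Bmp5 had a low run, against 10.3% of all genes.

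The tiles allow the promoter and the gene to be compared. These sides, and the position bins below, follow the array's start. At Bmp4 and Inhba it lies 3584 and 2656.5 bp past the RefSeq start, so some of their promoter probes lie past the RefSeq start. Among the 8 genes at or above 0.5 with enough probes on both sides, 6 had a higher mean within the gene, and the share of all genes at or above 0.5 was 71.3%, close to the 75% of these 8. Bmp4 and Inhbb were higher in the promoter, at 1.01 and 0.87, against 0.70 and 0.80 within the gene. Over the 32 of the 35 genes with both sides, 16 were higher within the gene, and 53.7% of all genes were. The difference was large in single genes: Fst had 2.65 within the gene and 0.47 in the promoter, Bmp6 had 2.25 and 0.81, Grem1 had 2.02 and 0.84, and Nog had 1.88 and -0.29. The order was turned round in other genes, where the promoter stood higher. Among them Gdf1 had -1.83 within the gene (3 probes only) and -0.51 in the promoter (32 probes), and Bmp5 had -1.46 and -0.16. The RefSeq windows of Gdf1 held 0 of its probes, so its array start could not be compared with RefSeq. Cer1 had -1.60 and -0.31, Bmp10 had -0.81 and 0.29, and Nodal had -0.48 and 0.48. By position, probes of the 9 genes at or above 0.5 averaged 1.45 ± 1.504 in the first 1000 bp past the start (50 probes) and -0.40 ± 1.64 between 5000 and 4000 bp before it (28 probes). Over the remaining genes the same bins held -0.04 ± 1.63 (124 probes) and -0.13 ± 1.63 (69 probes), and over all genes 0.07 ± 1.40 and -0.16 ± 1.34. For Grem1, Bmp6 and Tgfb1 together, the first 1000 bp past the start averaged 1.94 ± 1.39 (18 probes), and the upstream bin held only 5 probes, all of Bmp6, at -1.74 ± 1.86. Both sets of genes were chosen by this ratio, so their level is a description.

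**Figure D3:**
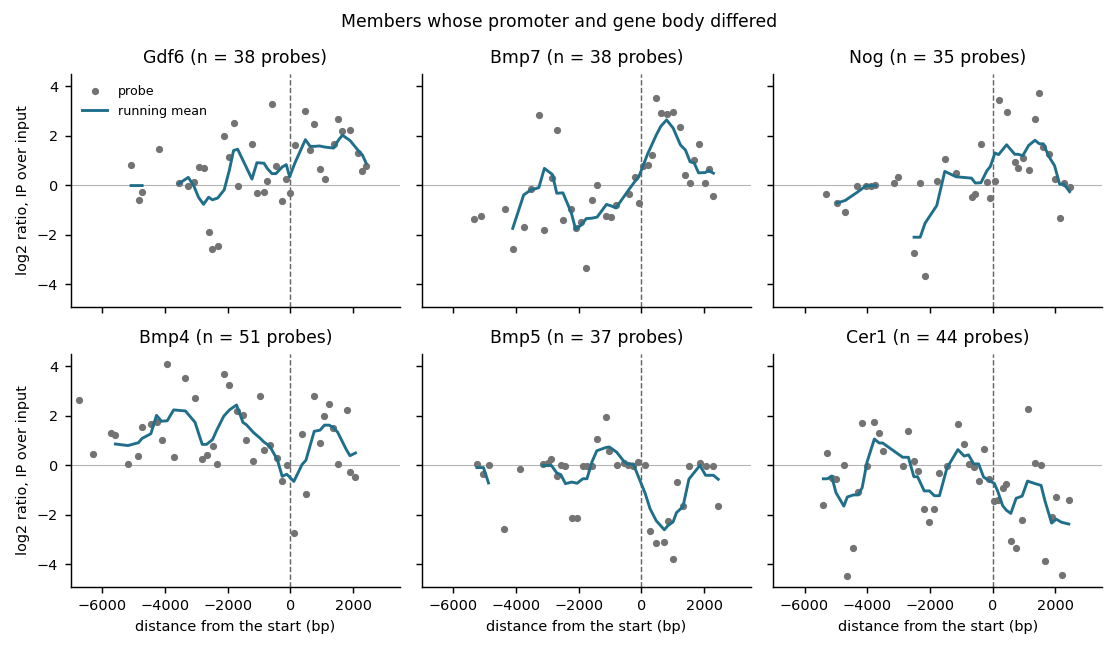
Log2 ratio of Ring1B IP over input (y axis) of each probe (points) against its distance from the transcription start in bp (x axis), for Gdf6, Bmp7, Nog, Bmp4, Bmp5 and Cer1, with the running mean as a line and the array's start dashed. Gdf6, Bmp7 and Nog are high past the start, Bmp4 is high upstream of it, over a stretch that holds its RefSeq start 3584 bp away, and Bmp5 and Cer1 are low past it. The Bmp4 probes from 8973 to 7266.5 bp before the start lie outside the x axis and are not shown.

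When only probes within 1000 bp of the start were averaged, 8 of 34 genes reached 1 (Fst, Bmp6, Grem1, Inhbb, Bmp2, Gdf10, Gdf6 and Bmp8a), against 8.08% of all genes in that window, and 2 of 34, Bmp5 and Gdf1, at or below -1, against 6.53% of all genes. Tgfb1 was then at 0.75. The order of the genes therefore depended on how much of the tile was counted, and Grem1 and Bmp6 alone were at or above 1 in all 11 processing alternatives. The requirement of at least 20 probes and the removal of shared probes could not change either gene. They had 30 and 38 probes, with 0 shared. At a threshold of 1.5 neither gene passed.

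The values of ligands and antagonists overlapped. The median was 0.07 over the ligands, of which 2 of 28 reached 1, and 0.15 over the antagonists, of which 1 of 7 did. Among all genes 2.00% reached 1. The ligands ranged from -0.76 to 1.30 and the antagonists from -0.75 to 1.31, so each group spanned nearly the same range. The difference of the medians, ligands minus antagonists, was -0.09, and it was not tested. It stood at -0.34 within 1000 bp of the start, -0.30 with Lefty1 and Lefty2 counted as ligands, -0.19 with Inha and Bmp3 counted as antagonists, -0.16 without probes dim in input, and 0.01 without the probes shared with a divergent neighbour, and between -0.10 and -0.01 in the other alternatives. The value within 1000 bp of the start rests on 6 antagonists, because Chrd had no start position and dropped out. The SD over genes was 0.52 for ligands and 0.68 for antagonists. A region of 2000 bp or more was found in 2 of 28 ligands (Bmp6 and Tgfb1) and 2 of 7 antagonists (Fst and Grem1). Of all genes, 3.05% had such a region. These counts rest on single genes, and the roles were not tested against each other.

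The probes of the genes with a high ratio were rich in CpG. In all, 15 of the 35 genes fell in the upper quartile of all genes by CpG content of their probes (at least 1.73 CpG per 100 bases), and 8 of them were at or above 0.5 and 3 at or above 1. Of the other 20 genes, 1 was at or above 0.5 and 0 at or above 1. Over all genes, 16.3% of that upper quartile reached 0.5 and 6.13% reached 1, and among the rest 4.70% and 0.626% did. Across the 35 genes the correlation of CpG content with the ratio was 0.55 (Pearson) and 0.50 (Spearman), given as a description over genes that share 2 arrays; over all genes it was 0.23 and 0.19. With the GC content of the probes the correlation was 0.15 and 0.19. Amh, Bmp8a and Inhbe were rich in CpG by the same rule and had means below 0. In the RefSeq promoter windows the median was 25 CG pairs over 6 genes at or above 0.5 and 6 over 17 windows of 16 other genes. The letters TATAAA, searched on both strands, occurred in 4 of 23 windows of the 35 genes (17.4%), and in 13.6% of all promoter windows.

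**Figure D4:**
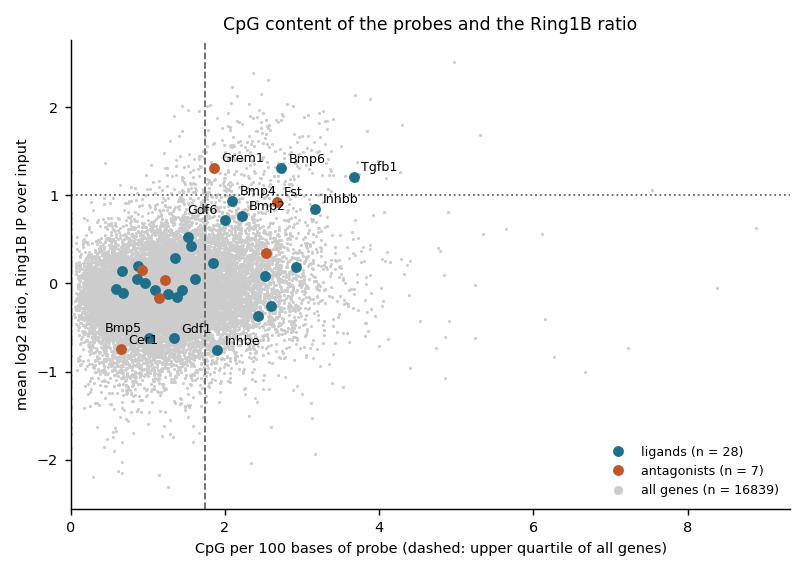
Mean log2 ratio of Ring1B IP over input (y axis) against the CpG content of a gene's probes, in CpG per 100 bases (x axis), for ligands, antagonists and all 16839 genes (grey). The dashed line marks the upper quartile of all genes by CpG and the dotted line the threshold of 1. The 3 genes at or above 1 lie right of the dashed line, as do several genes near or below 0.

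The other genes of the pathway were set beside these ligands and antagonists. Their lists were chosen with earlier results of these data known, so the counts below are a description and not a test. Of 69 genes measured in these lists, 6 were at or above 1, against 2.00% of all genes. Among these 6, 5 belonged to the 13 genes listed as direct transcriptional targets of the pathway. The 5 were the homeobox genes Msx1 (1.89), Gsc (1.58), Dlx5 (1.21) and Msx2 (1.03) and the T-box gene Eomes (1.12), which encode transcription factors of early development; the lowest target was Mixl1 (-0.52). No receptor of 16 was at or above 1, the highest being the BMP co-receptor gene Rgma (0.72) and the lowest the anti-Mullerian hormone receptor gene Amhr2 (-0.83). No Smad or Smad regulator of 15 was at or above 1, the highest being the common Smad gene Smad4 (0.60), and Smad1, which carries BMP signals, was at -1.11, the 1 gene of the lists at or below -1. In a list of 19 other antagonists and modulators, 0 were at or above 1. Its highest and lowest were the Nodal co-receptor genes Tdgf1 (0.78) and Cfc1 (-0.74), which were counted here and not with the receptors. Of 4 proteases that process ligands or antagonists, Tll1, which cleaves chordin, was at 1.12 and Furin, which matures the ligands, at -0.07. The 2 other ligand genes, Gdf15 (-0.02) and Mstn (-0.14), were near the median of all genes.

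**Figure D5:**
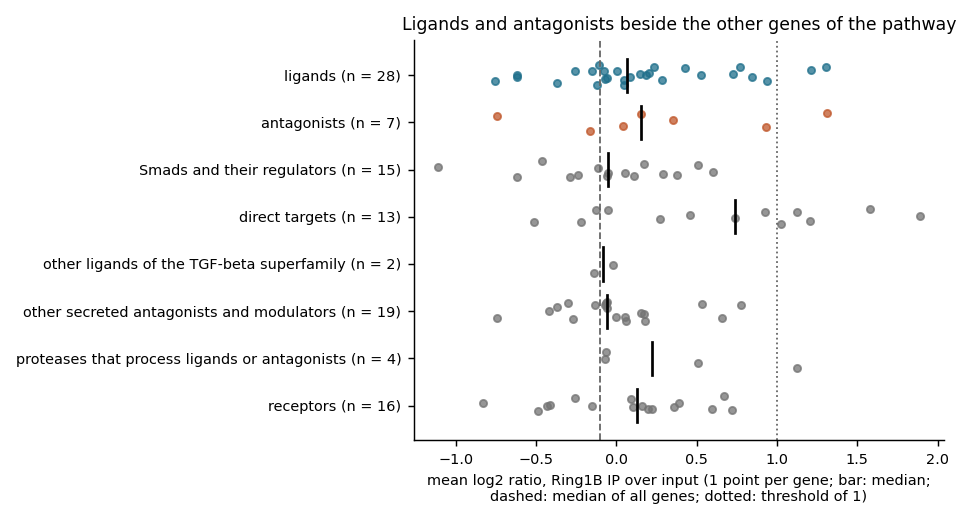
Mean log2 ratio of Ring1B IP over input (x axis) of each gene (points) in the ligands, the antagonists and 6 other lists of the pathway; bars are medians, the dashed line the median of all genes and the dotted line the threshold of 1. The direct targets reach furthest right, with 5 of 13 past the dotted line, against 2 of 28 ligands and 1 of 7 antagonists. All lists were chosen with earlier results of these data known, so the counts are a description.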

How the data were processed

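The authors deposited array files of fluorescence intensity values; their headers name Agilent Feature Extraction 9.1.3.1. Processed signals are, per the file headers, background-subtracted, spatially detrended and scaled by 1 dye factor per channel, with dim spots set to a floor. The deposited log10 ratio is red over green, per the file headers. The authors' series table holds log2 ratios of mean signals, uncentred (column medians 0.774 and 0.798). Per the labels' protocols, DNA was amplified by linker-mediated PCR before labelling, which can change the relative abundance of fragments.

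From these, log2 of the red over green processed signal was centred on each array's median probe (0.23 and 0.16) and averaged per gene, without control spots and 141 and 17 outlier probes. Both channels were at the floor for 18.2% and 15.5% of probes. Distances to the start used the array annotation where given, and otherwise the boundary between promoter and inside probes, which lay at a median distance of 51.5 bp where both were known. With 1 array per gene no test was run. Alternatives were no centring, normexp (offset 50), loess, the series table, a GC correction, filters on dim, floor or shared probes, the median, a window at the start and other thresholds. Python 3.11.15 and limma 3.58.1 were used, and the steps were tested on simulated data. The members and the pathway lists were chosen with earlier results of these data known. One gene of the direct-target list is not reported here and was left out of its counts. Every member is named, and of each other list the genes at or past 1 or -1 and the highest and lowest.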

Additional observations from a re-analysis of the deposited data

How the results depend on the processing

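No paired analysis was possible because the 2 arrays carried different probes and each gene had 1 array. Grem1 and Bmp6 were at or above 1 in all 11 alternatives and Tgfb1 in 9 of 10. The requirement of 20 probes and the removal of shared probes left Grem1 and Bmp6 unchanged by construction. Of the 35 genes, 16 were above 0 and 4 below 0 in every alternative, and 15 changed side. The median of the 35 genes stayed above that of all genes by 0.07 to 0.33. Members at or above 1 numbered 6 without centring (ligands 4, antagonists 2; median 0.31, while the median of all genes moved by 0.20), 5 with loess (antagonists 2), 7 without probes dim in input (ligands 5, antagonists 2; median 0.26; other pathway genes 10; 1 gene, Bmp5, at or below -1), 6 without floor probes (ligands 4, antagonists 2; Bmp5 at or below -1, 1 gene), and 8 within 1000 bp of the start (ligands 6, antagonists 2; median 0.24; other pathway genes 16; 2 genes at or below -1). Of all genes, the share at or above 1 was 2.98% without centring, 2.29% with loess and 3.58% without probes dim in input. It was 2.88% without floor probes and 8.08% within 1000 bp of the start. At or below -1 lay 3.72% of all genes without probes dim in input, 3.27% without floor probes and 6.53% within 1000 bp. The median of the 35 genes was 0.34 with normexp, 0.33 in the series table and 0.21 after GC correction. With at least 20 probes 1 ligand was at or above 1, since Tgfb1 had 19. At a threshold of 0.5 the counts were 9 members (7 ligands, 2 antagonists), 4 at or below, and 17 other pathway genes; at 1.5 they were 0, 0, 0 and 2. Of all genes, 7.61% were at or above 0.5, 15.4% at or below -0.5 and 0.647% at or above 1.5. Long regions numbered 1 at a running mean of 1.5 (Fst), 12 at 1000 bp and 7 with normexp, the last added after seeing the data. The shares of all genes with such a region were 1.18%, 8.27% and 4.22%. The cause of the other moves was not tested. The number of arrays limits the precision, and dim probes limit Bmp5 most.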

Other observations

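Several neighbours of the ligand and antagonist genes had ratios unlike theirs. Thpo, which encodes thrombopoietin and whose tile lies 461 bp from that of Chrd, averaged 0.89 ± 1.22 over 12 probes, against 0.15 for Chrd. Apobec1, an RNA-editing enzyme gene 721 bp from Gdf3, averaged 0.91 ± 1.10 over 7 probes, against 0.01 for Gdf3. B9d2, 165 bp from Tgfb1, averaged 0.11 ± 1.01 over 38 probes, against 1.21 for Tgfb1. Gdf10 and Gdf2, whose tiles lie 13846 bp apart, averaged 0.43 and -0.11. Inhbc and Inhbe, 56 bp apart, averaged -0.06 and -0.76. None of these differences was tested.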
